A study of Mus musculus with 98 samples.

Results

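The genes described here are the 6 oncofetal RNA and chromatin regulators Lin28a, Lin28b, Hmga2, Igf2bp1, Igf2bp2 and Igf2bp3. They were taken by name, as 6 of the 22231 genes of the single-cell table of the age series and of the 39179 genes of the bulk table, and they had been proposed because their measured levels were lower at later ages in these same libraries. Since the members were chosen by their measured levels across the ages, their values over ages are given as a description, without a test. Tests of the members are given only between populations or label prefixes of the same age and between genotypes. Other listed genes were also tested between ages.

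Lin28a and Lin28b are RNA-binding proteins that bind the precursors of the let-7 microRNAs and block their maturation. Mature let-7 in turn represses the messages of Lin28b, Hmga2 and the Igf2bp genes, so that the circuit holds an embryonic and a mature state. Hmga2 is a chromatin architectural protein of embryonic mesenchyme that promotes growth and self-renewal. Igf2bp1, Igf2bp2 and Igf2bp3 are cytoplasmic RNA-binding proteins that stabilize and localize target messages such as Igf2 and Myc. The genes are expressed in many fetal tissues and most of them are low in adult tissues and return in tumors, while Igf2bp2 is the member of its family that many adult tissues keep.

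The study asked how the nonepithelial thymic stroma (NETS, sorted as Ter119-CD45-EpCAM- cells) changes as the mouse thymus forms and grows. NETS cells of wild-type (WT) mice were captured for single-cell sequencing (10x Genomics 3' chemistry) at the embryonic stages E12.5 and E13.5 (1 library each) and at E16.5, birth (P0) and 4 weeks (W4, 2 libraries each). Ter119-CD45- stroma, which keeps the thymic epithelial cells (TEC), was captured after fixation at P0 from 3 libraries labelled Tbx1+/-Crkl+/-, doubly heterozygous for 2 genes of the 22q11 deletion region, and 3 WT libraries. Bulk RNA of WT populations sorted by cytometry was sequenced at P0 and 4 weeks in 6 libraries each. They were CD31+ (endothelium), Ly51+gp38- (mural: pericytes and vascular smooth muscle), gp38+CD26+ (capsular fibroblast), gp38+CD26- (mainly medullary fibroblast), cortical TEC (cTEC) and medullary TEC (mTEC), with mTEChi and mTEClo added at 4 weeks. By the study gp38+CD26- cells also included a capsular fibroblast subtype. By the study's methods WT mice were C57BL/6, the heterozygotes carried a Tbx1 LacZ allele and a germline Crkl null allele and were set against WT littermates with 3 samples per genotype, and 2 thymi were sorted per age at E16.5, P0 and W4. For the bulk libraries nothing in the labels says that those of a group came from separate mice, so their p-values measure the spread between libraries, which may be technical.

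The age series held 36208 cells in 8 libraries (1997 to 6587 cells, median 10005 to 14031 UMIs per cell) and the genotype series 21451 cells in 6 libraries (1687 to 5661 cells, median 2391 to 4686 UMIs). Each Tbx1+/-Crkl+/- library had a lower median (2551, 2391 and 2506 UMIs) than each WT library of that series (2577, 3631 and 4686). The part of this depth in differences between the genotypes was not tested. Of the age series' cells 310 (0.856%), and of the genotype series' cells 88 (0.41%), carried a barcode also present in another library of the series. Bulk libraries held 5785352 to 15852166 counts in genes, except gp38+CD26+ replicate 2 at 4 weeks with 25702. That library also went against its label: its 6 TEC markers summed to 19340 CPM (counts-per-million, a count scaled to its library total) and its 4 fibroblast markers to 2296, where the median of its group was 164 and 46230. Several values of the members that rest on it are therefore also given without it. Shares over all genes, gene lists and the genes most like a member are printed with it. The labelled classes carried their own markers in the age series, with endothelial markers summing to 1747 to 3403 CPM in endothelium, fibroblast markers to 1039 to 20780 in fibroblasts and mural markers to 945 to 13200 in mural cells (pericytes and vascular smooth muscle), while TEC markers stayed between 1.24 and 68.9 CPM in these classes. Markers of the neighbouring classes were present too, fibroblast markers at 511 to 1462 CPM in mural cells and 15.2 to 1136 in endothelium, and mural markers at up to 873 in endothelium. Erythroid markers (haemoglobin genes) varied widely between the age libraries, from 0.475 to 2226 CPM in fibroblasts, 0.838 to 5484 in mural cells and 0.412 to 24810 in endothelium, lowest at E12.5 and highest in a W4 library in all 3, and their part in the levels over ages was not tested. In the genotype series WT libraries had 13, 6 and 19 UMIs of Tbx1 (1.79, 0.441 and 0.605 CPM). The doubly heterozygous ones had 0, 0 and 8 (0, 0 and 0.872 CPM), which overlapped WT. Crkl lay at 23.6 to 26.9 CPM against 18.4 to 25.1 in WT, which a 3' tag cannot use to check the deletion if it lies outside the deleted part.

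Since let-7 sites are what the members share besides their age pattern, the sequences are shown before the values. Of the mature 5p names of the let-7 family in RefSeq for the mouse, 9 were used here (let-7a to let-7g, let-7i and miR-98). Entries on a further chromosome had been left out. All 9 share the seed, bases 2 to 8, which is set in capitals here for let-7a and for 2 names that differ from it outside the seed.
mmu-let-7a-5p: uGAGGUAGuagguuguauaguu
mmu-let-7g-5p: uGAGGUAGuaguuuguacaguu
mmu-miR-98-5p: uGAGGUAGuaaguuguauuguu
The let-7a copy shown is on chromosome 13 (GRCm38.p6 chr13:48538239-48538260, minus strand), let-7g on chromosome 9 (chr9:106178846-106178867, plus strand) and miR-98 on the X chromosome (chrX:151913229-151913250, plus strand). The complement of the seed, CTACCTC, was searched on the sense strand of the longest annotated 3'UTR of each gene in GRCm38. Lin28b held 4 matches in 4445 bases, Hmga2 4 in 3014, Igf2bp1 4 in 6337, Lin28a 2 in 2775, Igf2bp2 1 in 1784 and Igf2bp3 1 in 2119. Of all 21010 3'UTRs 1895 (9.02%) held at least 1 match. Among 3'UTRs within 20% of the same length, 0.089% held as many as Hmga2, 0.158% as many as Lin28b, 0.178% as many as Igf2bp1 and 2.06% as many as Lin28a, whereas 12.025% and 13.3% held as many as Igf2bp2 and Igf2bp3. The windows shown carry the match in capitals and are the one nearest the stop codon in the genes with 4 matches and the only one in Igf2bp2 and Igf2bp3.
Lin28b site: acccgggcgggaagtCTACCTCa
Hmga2 site: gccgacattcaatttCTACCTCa
Igf2bp1 site: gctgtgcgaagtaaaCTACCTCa
Igf2bp2 site: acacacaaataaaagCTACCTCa
Igf2bp3 site: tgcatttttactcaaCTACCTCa
They lie at chr10:45381022-45381044 (36 bases into the 3'UTR), chr10:120364224-120364246 (58 bases in), chr11:95961778-95961800 (1715 bases in), chr16:22059473-22059495 (1313 bases in) and chr6:49086787-49086809 (548 bases in), all on the minus strand. A match is a string in a reference window and was not measured as a bound site here.

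Over the whole NETS the members declined in an order. Lin28b and Hmga2 passed under 10% of their highest level at E16.5, Igf2bp1 at P0 and Igf2bp2 at W4, while Igf2bp3 stayed just above 10% at W4. The last step does not set these 2 genes apart, since the W4 libraries were at 8.98% and 10.8% for Igf2bp2 and at 10.9% and 10.4% for Igf2bp3. Levels are CPM of all UMIs of the cells concerned, and each member's age of loss is the first age at which its mean over libraries was under 10% of its highest age mean. The highest mean of all 6 genes over all cells was at E12.5.

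Lin28a was near the detection limit throughout. It had 5 UMIs at E12.5 (0.170 CPM, 95% exact Poisson interval 0.0551 to 0.396) and 8 at E13.5 (0.112 CPM, 0.0482 to 0.220), and 0 in all 6 later libraries, where 3 counts would be 0.0322 to 0.105 CPM. These and all later intervals and limits cover counting error only. At E13.5 the proliferating cluster held 4 of the 8 UMIs, and no subtype or class rested on more.

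Lin28b was at 5.43 CPM at E12.5 (160 UMIs) and 1.91 at E13.5. The E16.5 libraries held 0.0855 and 0.129 CPM (7 and 12 UMIs), the P0 libraries 0.0165 and 0.0444 CPM (1 and 3 UMIs), and both W4 libraries 0 UMIs. The E16.5 mean was 1.98% of that at E12.5. Timing by subtype is not read for this gene, as several subtypes held 1 or 2 UMIs at their highest age. At E12.5, in its 1 library, the capillary endothelial subtype EnC had the highest level of 13 subtypes at 11.2 CPM, and the vascular smooth muscle subtype VSM was at 0. Endothelium held more Lin28b there (10.3 CPM) than fibroblasts (6.38) or mural cells (0.838), the mural value resting on very few UMIs. Of these 3 classes endothelium also had the highest level at E13.5 (4.51 CPM), E16.5 (0.506) and P0 (0.167), though the P0 value rests on 1 UMI in 1 of its 2 libraries.

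Hmga2 was lost mainly between E13.5 and E16.5. It went from 429 CPM at E12.5 to 174 at E13.5, to 2.35 and 2.62 in the E16.5 libraries, to 1.47 and 1.495 at P0 and to 0.280 and 0.231 at W4. The E13.5 level was 70.2 times the E16.5 mean, and the E16.5 mean was 0.579% of the level at E12.5. E12.5 and E13.5 each rest on 1 library, so for them no replicate error is known. The W4 values rest on 8 and 9 UMIs.

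The 3 classes lost Hmga2 from different starting levels. At E12.5 it was at 510 CPM in mural cells, 460 in fibroblasts and 121 in endothelium. At E16.5 mural cells kept 0.390 CPM, or 0.0764% of their E12.5 level, against 2.96 in fibroblasts (0.644%) and 4.07 in endothelium (3.35%). Cells labelled neural crest (NC) still had 11.1 CPM at P0, from 3 UMIs in each library, when the median of 18 subtypes was 1.42.

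Fibroblast subtypes differed in Hmga2 at E13.5. The medullary subtypes MedFb1a, MedFb1b and MedFb2a held 278, 311 and 253 CPM of Hmga2, while the 7 capsular subtypes were all lower in this library, CapFb1a at 145 and CapFb3, the lowest, at 35.04. The proliferating cluster Pr held 220. By E16.5 the order was gone, with MedFb1a at 2.51, MedFb1b at 4.68 and CapFb1a highest at 5.73. CapFb3 was already under 10% of its own E12.5 level at E13.5, and of the 15 fibroblast, mural and endothelial subtypes measured at E12.5 or E13.5 the other 14 passed that mark at E16.5.

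Igf2bp1 was at 155.3 CPM at E12.5 and 99.2 at E13.5. It was at 29.7 and 28.1 in the E16.5 libraries, 9.49 and 14.4 at P0 and 0.105 and 0.0512 at W4, the last on 3 and 2 UMIs. Its E16.5 mean was 18.6% and its P0 mean 7.69% of that at E12.5. Of 15 subtypes 12 passed under 10% at P0 and the other 3, CapFb4, MedFb1b and MedFb2a, at W4; none of these 3 had 20 cells at E12.5, so their highest level is that of E13.5. At W4 the highest subtype was the pericyte subtype Pc at 0.694 CPM and the median of 18 subtypes was 0.

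Igf2bp2 and Igf2bp3 moved little between E16.5 and P0. Igf2bp2 was at 148.8 CPM at E12.5, 72.6% of that at E13.5, 60.1 and 62.8 CPM in the E16.5 libraries, 51.5 and 61.3 at P0 and 13.4 and 16.1 at W4. Igf2bp3 was at 123.5 CPM at E12.5, 96.1 at E13.5, 61.4 and 62.1 at E16.5, 56.3 and 63.4 at P0 and a mean of 13.2 over the W4 libraries. For both genes the means of E16.5 and P0 differed by less than the gap between the P0 libraries. The W4 means were 9.90% and 10.7% of those at E12.5. In 6 of 15 subtypes Igf2bp2, and in 11 of 15 Igf2bp3, never passed under 10%.

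Igf2bp2 was lower in endothelium than in fibroblasts at every age. It went there from 65.4 CPM at E12.5 to 53.2, 11.0, 15.7 and 0.9499 CPM at the later ages, while fibroblasts held 150.1, 112.4, 70.8, 62.8 and 17.8. The venous and lymphatic subtype EnVL, at 6.68 CPM, was the only subtype already under 10% of its highest level at E16.5. For Igf2bp3 the gap between the classes was smaller. Endothelium held 81.5 CPM at E12.5, 65.02 at E13.5, 51.1 at P0 and 11.7 at W4, and fibroblasts 127.2, 102.5, 63.8 and 13.47. Among subtypes with at least 20 cells in every library of the age, an endothelial one was lowest at E12.5 (EnC), E13.5 (EnVL), E16.5 and P0 (both EnA). Mesothelial cells, not ranked at P0, were lower there at 23.6 CPM against 39.6 in EnA.

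**Figure D1:**
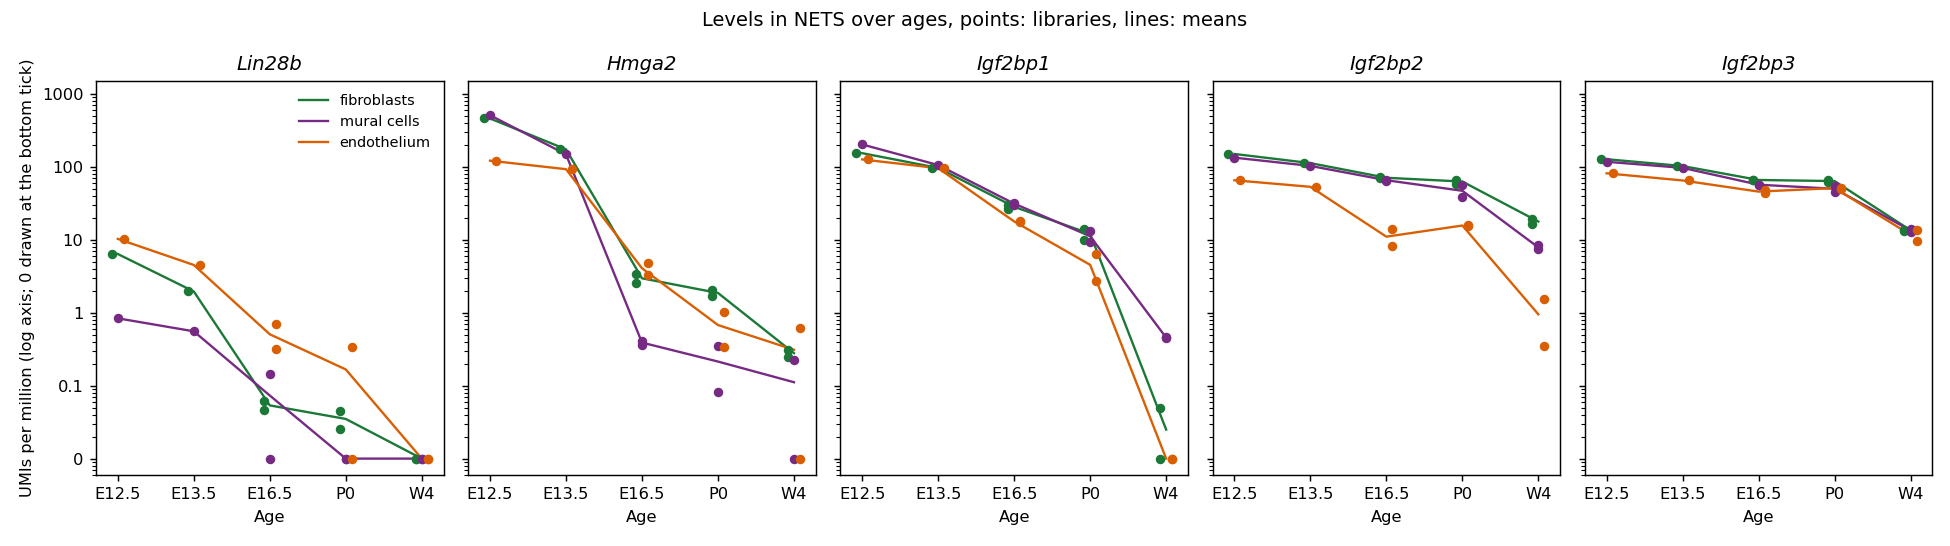
Level of 5 members (CPM, log axis with 0 drawn at the bottom tick) by age in fibroblasts, mural cells and endothelium, with a point per library and a line through the means. Lin28b and Hmga2 drop between E13.5 and E16.5, Igf2bp1 is lower at each later age, and Igf2bp2 and Igf2bp3 stay above 10 CPM in fibroblasts at W4.

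**Figure D2:**
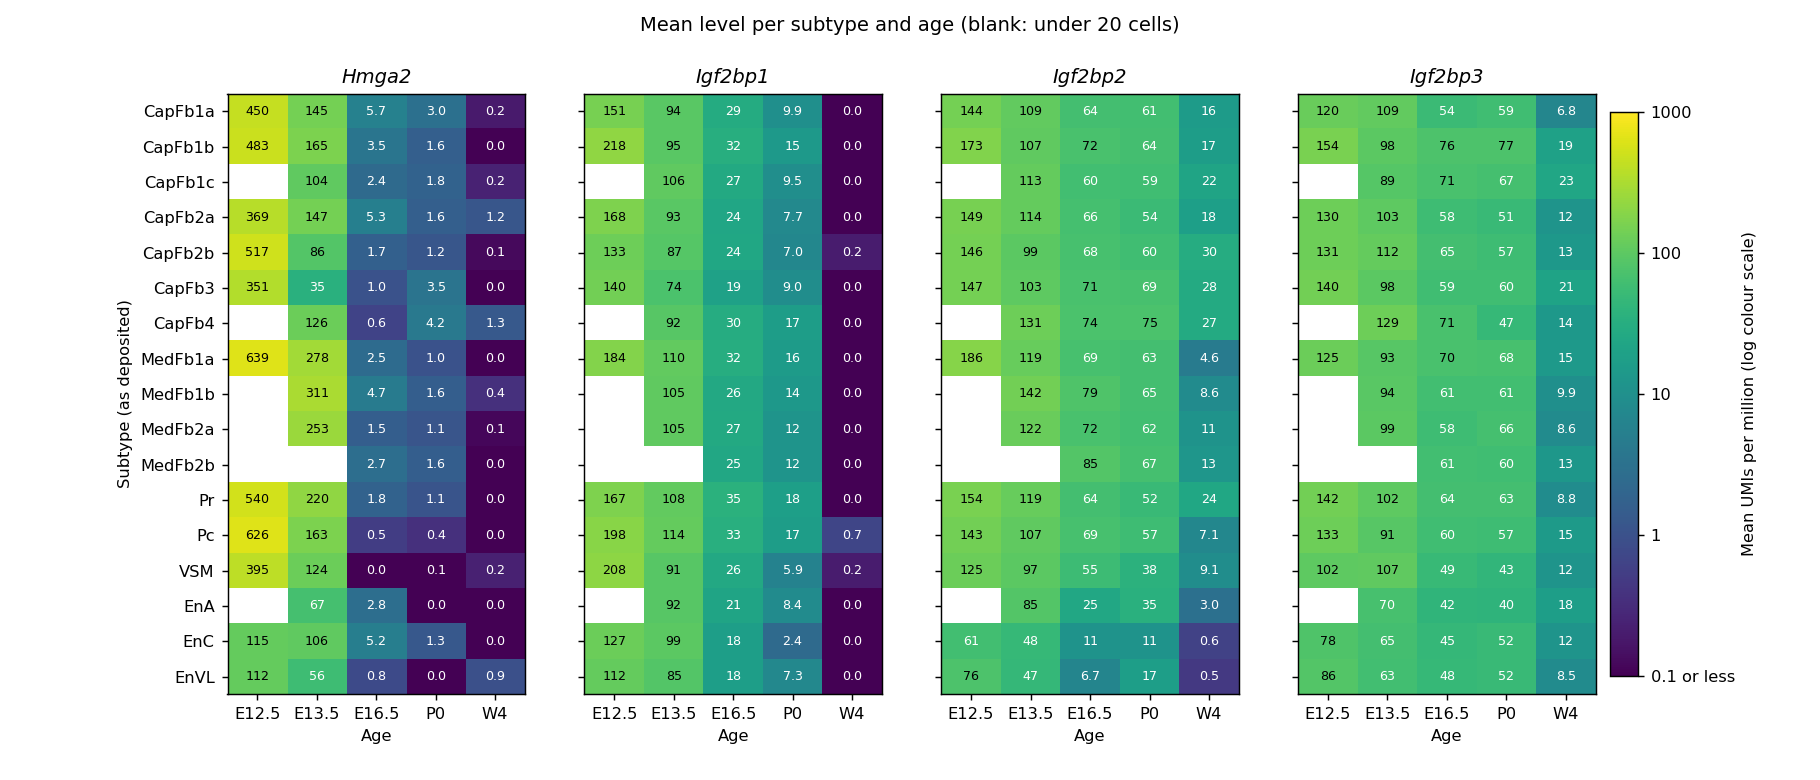
Mean level (CPM, log colour scale, value printed in each cell) of Hmga2, Igf2bp1, Igf2bp2 and Igf2bp3 for the deposited subtypes (rows) and ages (columns), blank where no library held 20 cells of the subtype. The medullary subtypes stand above the capsular ones for Hmga2 at E13.5, and EnC and EnVL are low for Igf2bp2 from E16.5 on.

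Sorted populations gave the loss between P0 and 4 weeks outside the single-cell method, with TEC included. In bulk samples fewer cells of a type and less RNA per cell cannot be told apart. Levels are CPM of all counts in genes, and are compared only within a gene. A gene is said not to overlap where all 6 P0 libraries were above all 6 at 4 weeks, which held for 2.37% of expressed genes in CD31+, 4.01% in Ly51+gp38-, 3.33% in gp38+CD26+, 5.44% in gp38+CD26-, 4.16% in cTEC and 2.48% in mTEC cells; since the members were chosen for such loss, nothing is read from their own counts against these shares.

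Hmga2 at P0 was seen in cTEC, at 0.988 CPM in the lowest, 5.23 in the median and 9.79 in the highest library, and had 0 counts in all 6 cTEC libraries at 4 weeks, where 3 counts over the group would be 0.0411 CPM. It was also seen in all 6 gp38+CD26- libraries at P0, at 0.145, 0.263 and 3.65 CPM (lowest, median, highest), where the 4-week mean was 4.15% of the P0 mean without overlap. That share was 13.8% without P0 replicate 3 and 1.82% without 4-week replicate 2, alternatives chosen after seeing the data. The gp38+CD26- libraries held 4, 2, 49, 4, 2 and 2 counts at P0 and 1, 2, 0, 0, 0 and 0 at 4 weeks. The lowest P0 library and the highest 4-week library both held 2 counts, so nothing is read from the lack of overlap. In the other 4 populations the P0 medians were 0 to 0.251 CPM, with a highest library of 2.56 CPM in CD31+ cells. At 4 weeks no library of these 6 populations exceeded 0.224 CPM.

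Igf2bp1 was lost from all 4 nonepithelial populations and not from mTEC. In Ly51+gp38- cells it was at 36.7 CPM in the lowest, 67.01 in the median and 80.2 in the highest P0 library. The corresponding values were 17.4, 45.6 and 61.4 CPM in gp38+CD26+, 4.27, 38.2 and 66.6 in gp38+CD26-, and 4.71, 16.46 and 40.4 in CD31+ cells. At 4 weeks these populations had 0 counts in every library except gp38+CD26- replicate 4 at 0.163 CPM, and no population overlapped between ages. The mTEC libraries held 5.47, 7.49 and 15.8 CPM (lowest, median, highest) at P0 and 0, 11.1 and 14.5 at 4 weeks, so that the 4-week mean was 91.3% of the P0 mean and the ages overlapped. Of the 6 mTEC libraries at 4 weeks 5 had counts. Subsets of mTEC had it too, at 0.956, 8.08 and 13 CPM in mTEChi and at 0, 0 and 14.8 in mTEClo.

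Igf2bp2 and Igf2bp3 were lower at 4 weeks in the nonepithelial populations that held them and in cTEC. P0 medians of Igf2bp2 were 74.7 CPM in Ly51+gp38-, 80.5 in gp38+CD26+, 96.6 in gp38+CD26- and 39.5 in cTEC, and the mean at 4 weeks was 19.2%, 13.01%, 8.27% and 18.6% of that at P0, with no overlap. Without the shallow library the gp38+CD26+ share was 15.6%. In mTEC the median went from 6.64 CPM (5.12 to 12.1) to 4.46 (0 to 11.6), which overlapped, and CD31+ cells had a median of 0.438 CPM (0 to 10.7) already at P0.

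For Igf2bp3 the share left was given by single libraries in several populations. Its mean at 4 weeks was 0.355% of the P0 mean in gp38+CD26-, 0.697% in Ly51+gp38- and 1.29% in CD31+ cells, but 10.2% in gp38+CD26+ (12.2% without the shallow library), 17.6% in cTEC and 36.6% in mTEC. The order of these shares is not read, since without 4-week replicate 1 that of Ly51+gp38- was 0.0236%, without replicate 6 that of gp38+CD26- 0.221%, without replicate 4 that of CD31+ 0.855% and that of gp38+CD26+ 6.64%. The 4-week libraries spanned 0 to 0.735 CPM in gp38+CD26- cells and 0 to 19.5 in gp38+CD26+ cells (1.21 to 19.5 without the shallow library). Only mTEC overlapped between ages for this gene.

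The bulk and single-cell measurements of Igf2bp3 were close in fibroblasts at P0. At 4 weeks the bulk values of gp38+CD26-, Ly51+gp38- and CD31+ cells were far below the single-cell ones. At P0 the single fibroblasts were at 61.1 and 66.5 CPM, and the bulk fibroblast populations had medians of 61.8 (gp38+CD26+) and 54.97 (gp38+CD26-). Single endothelium was at 51.8 and 50.4 CPM at P0, and bulk CD31+ cells had a median of 111.5. Single mural cells were at 45.4 and 54.6, and bulk Ly51+gp38- cells had a median of 72.5 (46.6 to 110.9). At W4 the single fibroblast subtypes lay between 6.80 and 23.2 CPM, and bulk gp38+CD26+ cells had a median of 6.55 CPM (7.23 without the shallow library) but gp38+CD26- cells of 0.0871. Single mural cells were at 13.43 CPM and bulk Ly51+gp38- cells at a median of 0, and single endothelium at 11.7 and bulk CD31+ cells at a median of 1.42. The protocols differ in cells, chemistry and counting. The 3' end of Igf2bp3, at GRCm38 chr6:49085223-49086751, overlaps Malsu1 on the opposite strand, and whether the bulk counting used strand is not given in the sources used here. Malsu1 lay at 43.7 to 61.6 CPM in all 8 single-cell libraries lowest in the W4 libraries at 43.7 and 45.9, and its part in the Igf2bp3 values was not tested. Hmga2, Lin28a and Igf2bp1 also overlap annotated noncoding transcripts on the opposite strand, for which the same holds.

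Lin28 genes were seen in medullary epithelium alone among the 4-week populations. Lin28b had counts in 4 of 6 mTEC libraries at P0 (median 0.963 CPM, highest 3.39), in 3 of 6 mTEC libraries at 4 weeks (highest 2.73), in 5 of 6 mTEChi libraries (median 0.543, highest 5.98) and in 1 of 6 mTEClo libraries. Lin28a had counts in 2 of 6 mTEC libraries at P0 (highest 3.65 CPM) and 3 of 6 mTEChi libraries (highest 4.50). Outside mTEC, at P0, Lin28b was seen in 1 cTEC and 1 gp38+CD26+ library.

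**Figure D3:**
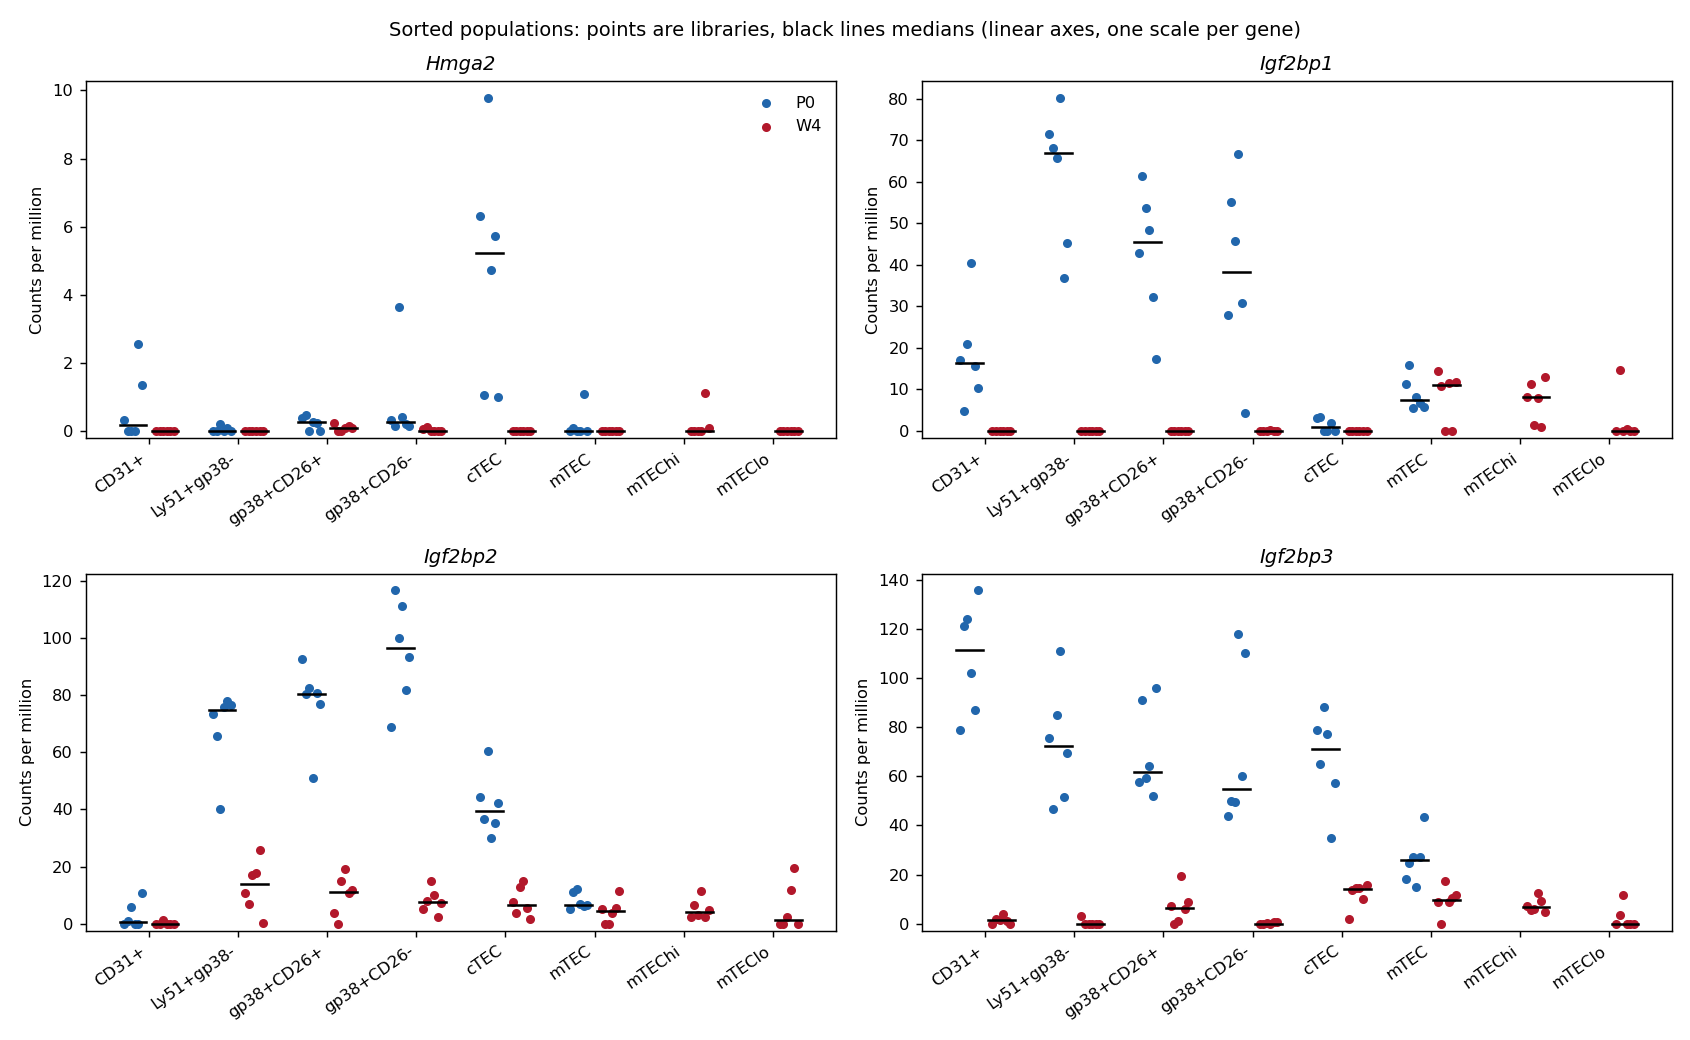
Level in CPM (linear axes, a scale per gene) of Hmga2, Igf2bp1, Igf2bp2 and Igf2bp3 in the 6 libraries of each sorted population at P0 and W4, with a point per library and a black line at the median. Hmga2 is seen in cTEC at P0, Igf2bp1 remains in mTEC and mTEChi at W4, and Igf2bp2 is low in CD31+ cells at both ages.

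Differences between populations of the same age were tested with edgeR's quasi-likelihood test and Benjamini-Hochberg adjustment over all genes tested. The genes were chosen for loss over ages and not for these differences. The same libraries served both, so the p-values are not independent of the choice. At P0 the test between the 6 populations gave adjusted p = 1.60e-06 for Igf2bp2, 6.36e-06 for Igf2bp1, 1.63e-05 for Igf2bp3 and 0.00207 for Hmga2. Of all genes tested 65.8% passed the same test, so a pass is common. In no population but cTEC did the median of Hmga2 exceed 0.263 CPM, and a gene that the filter keeps for its level in a single population is bound to differ. Lin28a and Lin28b did not pass the filter. Each population was then set against the mean of the other 5.

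In cTEC Hmga2 was higher and Igf2bp1 lower than in the other populations, while Igf2bp2 and Igf2bp3 did not pass (edgeR adjusted p = 0.44 and 0.978). Hmga2 was higher in cTEC than in the mean of the others, with a log2 fold change of 4.01 ± 0.82 (SE, edgeR's quasi-likelihood test, adjusted p = 0.00018, n = 6 per population). As the filter kept Hmga2 for its level in cTEC, this p-value is not read as support and the difference is a description. With no filter on low counts the log2 fold change of Hmga2 was 4.00 (edgeR adjusted p = 0.00028). Igf2bp1 was lower in cTEC, by a log2 fold change of -4.42 ± 0.73 (edgeR adjusted p = 9.76e-06), the 6 libraries spanning 0 to 3.38 CPM. It was higher in the mural population Ly51+gp38- (2.19 ± 0.45, edgeR adjusted p = 0.000453) and in both fibroblast populations (1.73 and 1.48, edgeR adjusted p = 0.00528 and 0.0232).

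Igf2bp2 was lower in CD31+ cells, with a log2 fold change of -3.94 ± 0.68 (edgeR adjusted p = 1.92e-05). It was also lower in mTEC (-2.18 ± 0.60, edgeR adjusted p = 0.0027) and higher in gp38+CD26- (2.17), gp38+CD26+ (1.89) and Ly51+gp38- cells (1.51), with edgeR adjusted p = 0.000309, 0.00144 and 0.0147. In the bulk populations Igf2bp3 was higher in CD31+ cells (0.88 ± 0.20, edgeR adjusted p = 0.000757), whose libraries held 78.7 CPM in the lowest, 111.5 in the median and 135.6 in the highest, and lower in mTEC (-1.57 ± 0.24, edgeR adjusted p = 1.59e-06), at 15.01, 26.02 and 43.4 CPM. Libraries whose names carry TXCK and those with DFCK (prefixes the labels leave unexplained) showed no difference in the 5 members tested at P0 (edgeR adjusted p of 0.980 or above), and 0.0417% of all genes passed.

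At 4 weeks Igf2bp2 and Igf2bp3 passed the filter and both differed between the 6 populations (edgeR's quasi-likelihood test, adjusted p = 0.0115 and 0.00613), as did 60.0% of all genes tested. Igf2bp2 was again lower in CD31+ cells, with a log2 fold change of -5.24 ± 1.27 (edgeR adjusted p = 0.00169) and counts in 1 of 6 libraries. Igf2bp3 was higher in cTEC (2.61 ± 0.86, edgeR adjusted p = 0.0196), at 1.83, 14.1 and 15.8 CPM, and in mTEC (2.39 ± 0.87, edgeR adjusted p = 0.0252), at 0, 9.69 and 17.3 CPM. The shares of Igf2bp3 left at 4 weeks rest on these same values, so these p-values add no separate support to them. Without the shallow gp38+CD26+ library the edgeR adjusted p for Igf2bp3 was 0.00612 between populations, 0.0221 in cTEC and 0.0275 in mTEC. Igf2bp1 was removed by the filter and is given as levels alone, with counts in 5 of 6 mTEC libraries and in 1 library of the other 5 populations together. Between mTEChi and mTEClo, where 16.4% of genes passed, no member did. The log2 fold changes (mTEChi against mTEClo) were 1.69 ± 1.63 for Igf2bp1, 1.79 ± 1.496 for Igf2bp3 and 0.09 ± 1.41 for Igf2bp2 (edgeR adjusted p = 0.576, 0.506 and 0.977), and with standard errors of this size a difference of several fold was not detectable.

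In the 6 P0 libraries of the genotype series, which were not used to choose the genes, Hmga2 and Igf2bp1 in TEC went the way of bulk cTEC. Bulk mTEC at P0 did not share that pattern, with medians of 0 CPM for Hmga2 and 7.49 for Igf2bp1, against 0.969 for Igf2bp1 in cTEC. Igf2bp1 is given here for TEC as a class alone. The comparison of TEC with the other classes was picked after its values were seen and is given as counts. Hmga2 was higher in TEC than in fibroblasts, mural cells and endothelium in 6 of 6 libraries each, with means of 30.95 CPM against 6.31, 1.79 and 3.75. Within TEC the perinatal cTEC subtype PcTEC held 26.8 CPM in the lowest, 41.39 in the median and 57.9 in the highest library, while mature mTEC (MmTEC) lay between 0 and 9.62 CPM. Igf2bp1 was lower in TEC than in each of the 3 other classes in 6 of 6 libraries, with means of 2.03 CPM against 26.6, 32.4 and 10.9. Igf2bp2 was higher in TEC than in endothelium, and lower than in fibroblasts, in 6 of 6 libraries. Igf2bp3 had a mean of 101.3 CPM in endothelium, 109.3 in mural cells and 166.4 in fibroblasts, and so was not highest in endothelium as it was among the bulk populations.

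Between the genotypes no member that could be tested passed in any class. Hmga2 in mural cells and endothelium and Igf2bp1 in endothelium and TEC were removed by the filter. The share of all genes that passed was 0.0% in fibroblasts, 0.112% in mural cells, 0.0126% in endothelium and 0.0% in TEC. In fibroblasts the count of 0 by edgeR's quasi-likelihood test stood beside 1007 genes at an unadjusted p under 0.05 and 13 genes by DESeq2, and in TEC beside 851 and 9. Lin28a was not analysed here in this series, and Lin28b was too low to pass the filter. The share of all genes whose libraries do not overlap between the genotypes was not computed. A lack of overlap between genotypes is therefore given as a description, and nothing is read from it.

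Hmga2 in fibroblasts gave the smallest adjusted p of the members. It was at 8.29, 6.08 and 13.04 CPM in the libraries labelled Tbx1+/-Crkl+/- (10, 23 and 32 UMIs) and at 4.12, 3.02 and 3.29 in WT (11, 11 and 34 UMIs), so the groups did not overlap. The log2 fold change was 1.34 ± 0.38 (SE, n = 3; edgeR's quasi-likelihood test, adjusted p = 0.310). TEC markers also differed between the genotypes. The 6 markers summed to 540, 1132 and 747 CPM in the same fibroblasts of the labelled heterozygotes and to 420, 522 and 424 in WT, none at 0. Both this sum and Hmga2 were thus higher in each labelled heterozygote library than in each WT library. Within each genotype the library with the highest sum had the lowest Hmga2, and nothing is read from either order. In TEC itself Hmga2 was at 40.7, 24.5 and 37.3 against 40.7, 23.4 and 19.1 CPM (0.32 ± 0.28, edgeR adjusted p = 0.715). Neural crest markers (3 genes) were also higher, at 10.8, 6.34 and 8.97 CPM against 5.99, 3.84 and 1.93, and fibroblast markers had a median of 7146 against 8592 CPM. The part of these markers in the result was not tested. In mural cells the groups did not overlap either (means of 3.04 and 0.542 CPM), removed by the filter and with an edgeR adjusted p of 0.205 without a filter (log2 fold change 2.88 ± 0.94), and there too the summed TEC markers were 668 to 1273 CPM against 413 to 618.

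The Igf2bp genes differed less. Igf2bp2 in fibroblasts was at 112.8, 88.8 and 119.4 CPM in the labelled heterozygotes and 93.6, 86.6 and 70.5 in WT, which overlapped (log2 fold change 0.32 ± 0.19, edgeR adjusted p = 0.655). Igf2bp3 was at 189 ± 43.9 and 143.6 ± 52.7 CPM (SD, n = 3; log2 fold change 0.36 ± 0.25, edgeR adjusted p = 0.680). Igf2bp1 in fibroblasts was at 29.1 ± 9.67 and 24.1 ± 6.53 CPM (0.23 ± 0.26, edgeR adjusted p = 0.799). In endothelium it was at 14.4 ± 1.18 and 7.34 ± 2.69 CPM without overlap, but was removed there by the filter, and without a filter the edgeR adjusted p was 0.917. Cycling markers (3 genes) in the same endothelium lay at 199 to 251.8 CPM in the labelled heterozygotes and 85.7 to 160.9 in WT, and their part was not tested.

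**Figure D4:**
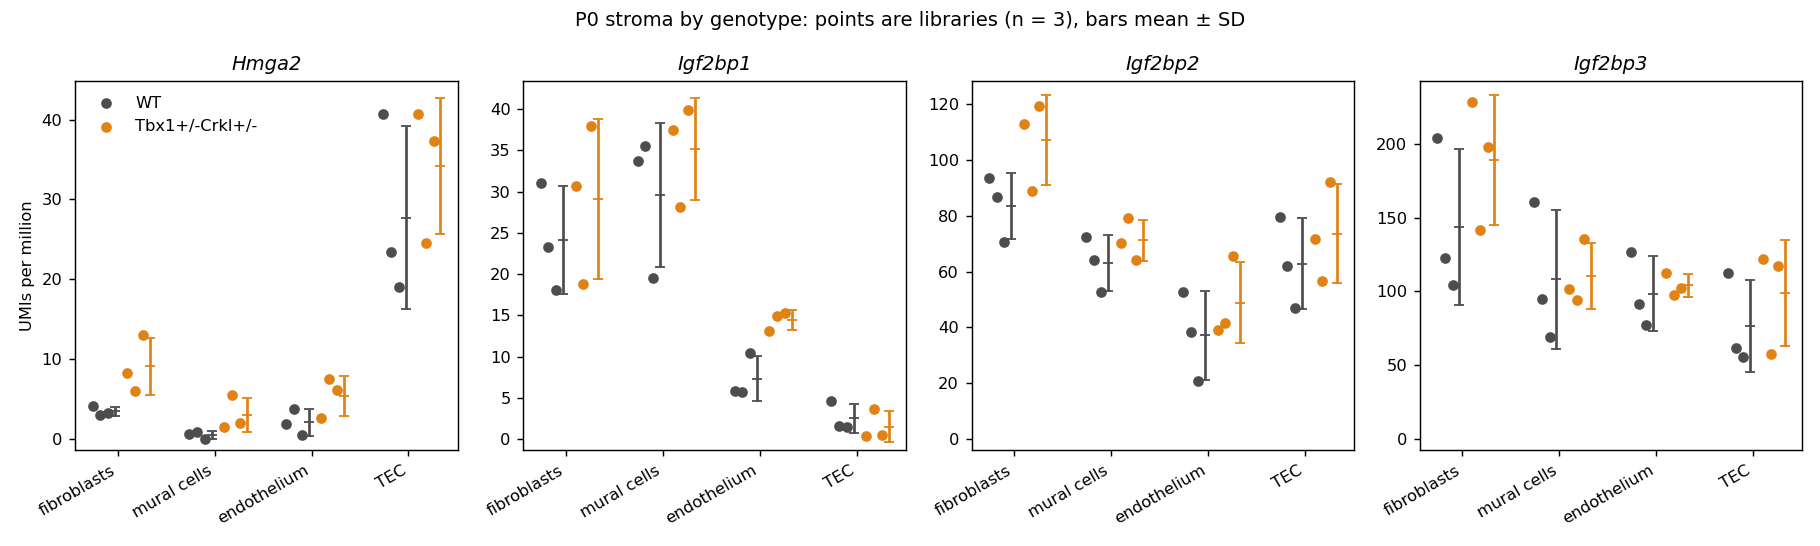
Level at P0 (CPM) of Hmga2, Igf2bp1, Igf2bp2 and Igf2bp3 in fibroblasts, mural cells, endothelium and TEC of the 3 libraries labelled Tbx1+/-Crkl+/- and the 3 WT libraries, with a point per library and bars for mean ± SD. Hmga2 is highest and Igf2bp1 lowest in TEC in both genotypes, and Hmga2 in fibroblasts is higher in each labelled heterozygote library than in each WT library.

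Other genes of the circuit were read from lists of reported partners between P0 and 4 weeks, as the number of sorted populations in which edgeR's quasi-likelihood test gave an adjusted p under 0.05. Of all 18910 genes tested, 0.619% fell and 1.15% rose in at least 4 of 6 populations. This limit was set after seeing the data, and the lists were chosen with earlier results of these data known. The counts for the lists are therefore descriptions. Of the 8 transcripts reported to be bound by Igf2bp proteins 3 fell in at least 4 and 0 rose, with a median mean log2 fold change of -0.28 against -0.01 over all genes. Igf2, the fetal growth factor, fell in 4 populations (mean log2 fold change -3.63), H19, the noncoding RNA of the same imprinted locus, in 5 (-5.21) and Myc, a growth regulator, in 5 (-1.83). The other 5, Actb, Cd44, Ctnnb1, Btrc and Mapk4, passed in at most 2 populations in either direction.

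Of 23 other reported let-7 targets 1, Myc, fell in at least 4 populations and 0 rose, with a median of -0.33. The cell-cycle gene Ccnd1 rose in 3 populations and fell in 0, and Ccnd2 rose in 3 and fell in 1. Of the 15 let-7 processing genes tested, among them Drosha, Dicer1 and Dis3l2, 0 fell and 0 rose in at least 4 (median -0.43). Of 3 partners of Hmga2 tested, Junb fell in 5 populations (-1.94) and 0 rose in 4 or more (median -0.16). The let-7 host transcripts had 2 genes tested, of which 0 passed in at least 4 (median -0.15).

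In single fibroblasts 12.9% of genes fell and 11.2% rose from E16.5 to P0, and 26.1% fell and 25.3% rose from P0 to W4. The 4018 genes behind the E16.5 to P0 shares dropped to 321 and 323 when E16.5 replicate 1 or 2 was left out. From P0 to W4 5 of the 8 Igf2bp-bound transcripts fell and 0 rose, with Igf2 at a log2 fold change of -6.44 and H19 at -3.41 (edgeR adjusted p = 2.42e-06 and 4.80e-06), while from E16.5 to P0 0 moved in either direction. Of the 23 other let-7 targets 10 fell and 7 rose from P0 to W4, Ccnd1 among those that rose (1.84, edgeR adjusted p = 0.00022), and 2 fell and 4 rose from E16.5 to P0. Of the 15 processing genes 5 fell and 3 rose from P0 to W4, and 2 fell and 1 rose before. Of the 4 Hmga2 partners 2 rose and 1 fell after P0, and 3 rose before it. The 1 let-7 host gene tested, Huwe1, rose after P0 (0.19).

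The genes with patterns most like each member over the mean log2(CPM + 1) of 12 groups (6 populations at 2 ages) were found among 18909 genes. The 12 groups share the difference between the ages and that between epithelium and the rest. For Igf2bp1 they were Hif3a (Pearson r = 0.939), Sfmbt2 (0.935), Peg10 (0.899), Per2 (0.894) and Plagl1 (0.894), of which Sfmbt2, Peg10 and Plagl1 are imprinted genes expressed from the paternal allele. For Igf2bp2 they were Spry2 (0.946), an inhibitor of growth factor signaling, Zfp61, Eef2k, Dnal1 and Zfp503 (0.926 to 0.934). For Igf2bp3 they were Gm16580 (0.948), Gm13456, the translation factor Eef1a1 (0.943), Rpl3-ps1 and 2700099C18Rik. For Hmga2 the leading gene was 4930426D05Rik (0.943), followed by Gm10644, Gm13112, Gm26677 and Tmem150cos, and for Lin28b Slc22a29 (0.999), followed by Dthd1, ENSMUSG00000097348, Ndp and Chrna5. Hmga2 and Lin28b were low or absent in most of the 12 groups, so their r values rest on few groups. Spearman's rho was 0.36, 0.595, 0.34, 0.63 and 0.15 for the genes listed for Hmga2. None of those listed for either member was in its top 5 by rho. Among the members the closest pair was Igf2bp1 and Igf2bp3 (0.80), and Lin28b with Igf2bp2 was the least alike (-0.13).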

How the data were processed

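For the single-cell libraries the authors deposited raw UMI counts (Cell Ranger 3.1.0; the study's methods state a minimum of genes per cell and removal of doublets, CD45-expressing and contaminant clusters, and the fewest genes in a deposited cell of the genotype series was 876), their subtype label of each cell, used unchanged, and whole read counts per Ensembl gene for the bulk libraries. The submitters' processing notes also name STAR 2.5.3a, HTSeq and the builds mm10 and GRCh38, without roles. Rows that name no gene (7.81 to 16.6% of bulk counts, and 29.4% in the shallow gp38+CD26+ library) were left out. Members, lists and tests were chosen with earlier results of these data known; the lists' limit of 4 of 6 populations and the comparison of TEC with other classes were set after seeing the data. UMIs were summed per library and class or subtype (at least 20 cells). Counts were tested with edgeR 4.0.16 (R 4.3.3; filterByExpr, TMM factors, quasi-likelihood test, Benjamini-Hochberg adjusted p under 0.05), with DESeq2 1.42.0 as an alternative, after tests on simulated data. The named genes were the 6 members, up to 4 genes per list that passed in most populations or rose against the list, and the 5 genes most like each member by Pearson r. Sequences are from RefSeq and the GRCm38 reference. Class depth and intervals cover counting error only.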

Additional observations from a re-analysis of the deposited data

Results flagged for a closer look

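Dixon's outlier test was applied to each member in each group of 6 sorted libraries with any spread; 13 of 55 groups held a library apart from the other 5, where chance gives about 1 in 20, and in most of them the other libraries were at or near 0. Lin28b was seen at 3.99 CPM in mTEClo replicate 2 at 4 weeks, 1.55 in cTEC replicate 1 at P0 and 0.0921 in gp38+CD26+ replicate 1 at P0. Hmga2 was at 3.65 CPM in gp38+CD26- replicate 3 at P0, 1.10 in mTEC replicate 5 at P0, 0.217 in Ly51+gp38- replicate 3 at P0 and 1.12 in mTEChi replicate 5 at 4 weeks. Igf2bp1 was at 14.8 CPM in mTEClo replicate 2, the library that also held Lin28b, and at 0.163 in gp38+CD26- replicate 4 at 4 weeks. Igf2bp2 was at 1.29 CPM in CD31+ replicate 3 at 4 weeks and, as the lowest of its group, at 40.0 in Ly51+gp38- replicate 3 at P0. Igf2bp3 was at 11.7 CPM in mTEClo replicate 3 and 2.97 in Ly51+gp38- replicate 1 at 4 weeks.

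Cells labelled Thy in the genotype series were not used in the comparisons above. Lin28b had 12 UMIs over their 535 cells (8.47 CPM, in 4 of 6 libraries) and 25 UMIs over the 20916 cells of all other labels (0.311 CPM).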

How the results depend on the processing

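Of 370 alternative values for members in tests between populations, prefixes and genotypes, 358 kept their direction and their side of the threshold, 6 changed sign with neither value past it, 5 passed the threshold only in the alternative and 1 only in the reported analysis. With DESeq2, lower Hmga2 in Ly51+gp38- cells at P0 passed (adjusted p = 0.0133), as did at 4 weeks lower Igf2bp3 in Ly51+gp38- (0.0374) and gp38+CD26- cells (0.00194) and higher Igf2bp2 in Ly51+gp38- cells (0.0498). The sign changes were in Igf2bp2 in mTEC at 4 weeks (0.384 with the replicate block) and, on leaving out a library in the genotype test, in Igf2bp1 in fibroblasts (-0.031 to 0.492, lowest without Tbx1+/-Crkl+/- replicate 3), Igf2bp3 in mural cells (-0.183 to 0.404, below 0 without Tbx1+/-Crkl+/- replicate 3, WT replicate 2 or WT replicate 3) and Igf2bp3 in endothelium (-0.055 to 0.256, lowest without WT replicate 3). The cause was not tested.

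Library numbers did not pair the samples (90 same-numbered pairs at P0, correlation of deviations -0.065 to 0.133). With a replicate block higher Igf2bp3 in mTEC at 4 weeks missed the threshold (edgeR adjusted p = 0.063), lower Hmga2 in Ly51+gp38- cells at P0 passed it (0.0399), the mTEChi against mTEClo log2 fold change was 5.97 for Igf2bp1 and 6.40 for Igf2bp3 (edgeR adjusted p = 0.0594 and 0.138), and 14 genes passed between genotypes in fibroblasts against 0 without it.

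Counts of genes past the threshold moved by over 1.5 times in these cases. Without a filter on low counts they were 14773 against 9795 between 4-week populations, 3809 against 2537 between mTEChi and mTEClo, and between genotypes 129 against 0 in fibroblasts, 88 against 12 in mural cells and 16 against 1 in endothelium. DESeq2 gave 65 against 8 between prefixes, 1098 against 606 between ages in mTEC, 13 against 0 between genotypes in fibroblasts and 9 against 0 in TEC. DESeq2 size factors gave 6 against 12 in mural cells. Between ages, prefix TXCK alone and DFCK alone, with 3 libraries a group, gave 828 and 249 against 1866 in CD31+, 749 and 160 against 2072 in Ly51+gp38-, 821 and 176 against 1881 in gp38+CD26+, 983 and 377 against 2473 in gp38+CD26-, 760 and 141 against 1771 in cTEC, and 329 and 38 against 606 in mTEC cells. In single fibroblasts P0 against E16.5 gave 4018, and 321 and 323 without E16.5 replicate 1 and 2, with up to 5494 when other libraries were left out. Leaving out a library gave 0 to 9 between genotypes in fibroblasts, 2 to 15 in mural cells, 0 to 8 in endothelium and 0 to 1 in TEC.

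The share of Hmga2 left at E16.5 was 0.633% with equal weight of subtypes and 1.02% as the share of cells with a UMI after thinning to 2000 UMIs, against 0.579%, and that of Igf2bp3 at W4 was 11.5% and 12.8% against 10.7%. By Spearman's rho 0 to 2 of the 5 genes most like a member remained. Leaving out each library in turn for the bulk share left at 4 weeks was added after seeing the data.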
